A study of Mus musculus with 8 samples.

Results

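The open chromatin at and around Gata3 is described here as every region with a peak summit in the gene (mm10, chromosome 2, 9857078 to 9887953, read on the reverse strand) or within 500 kb of it, whichever way it behaved. Summits whose peaks overlapped were joined to regions, and regions of the 4 deposited lists that overlapped by 1 bp or more were treated as 1 region, which gave 65 of the 60835 regions of the whole series. Chromatin accessibility was measured by ATAC-seq, in which the Tn5 transposase cuts open DNA. The cells were group 2 innate lymphoid cells (ILC2s) of the thymus of C57BL/6 mice that carry plck-Id1. The transgene expresses Id1, an inhibitor of E proteins, and its name refers to the proximal promoter of Lck, which is active in thymocytes. The E47 cells carried a MIGR1 retrovirus for GFP and E47-ER, a fusion of E47 to an estrogen receptor part that responds to tamoxifen, and the GFP cells carried the vector with GFP alone. Both were sorted for GFP, expanded with IL-7, IL-25 and IL-33, and given 4-hydroxytamoxifen for 4 h or 16 h, so the Id1 transgene, virus, cytokines and drug are shared by all groups. Each of the 4 groups had 2 samples, for which the authors deposited 1 joint list, and the labels do not say whether the 2 came from separate animals or cultures. The lists held 121 such summits in E47 and 110 in GFP after 4 h, and 98 in E47 and 140 in GFP after 16 h. The replicates' spread is therefore unknown, groups could not be tested against each other, and what follows describes these lists. A region that a list lacks was not called there and may have been open below the calling threshold.

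Gata3 encodes a zinc finger transcription factor that ILC2s need for their development and for the expression of their type 2 cytokines, and that T cells need in the thymus. It binds short GATA-containing DNA sites. In T cells the gene is known to be controlled by enhancers far outside the gene body, some of them a long way beyond its 3′ end. E proteins such as E47 bind E-boxes, short sites of the form CANNTG, and in lymphoid progenitors they favour T and B cell fates over the ILC2 fate.

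The labelled cell type was examined at marker genes, counted where a summit lay in the gene or within 2 kb of it. All 13 ILC2 markers, Gata3 among them, had a called summit in each list. Of the 8 T cell markers, 3 in E47 and 2 in GFP had one at 4 h, 2 in E47 and 3 in GFP at 16 h, and Cd3g, Cd8a, Cd8b1, Ptcra and Cd5 had none in any list. Among markers of group 3 innate lymphoid cells, Il23r was called in both E47 lists and in neither GFP list. Ccr6 was called in every list, and Il22 and Il17a had no call in any list. Of 5 NK cell and ILC1 markers, both E47 lists called 3 and both GFP lists 2, with Eomes called in E47 only. Of 5 B cell markers, E47 at 4 h called 4 and each other list 3. Each list called 4 of 6 mast cell and basophil markers, 3 of 6 myeloid markers and 3 of 6 fibroblast and epithelial markers. The part of these calls in the results at Gata3 was not tested. The free-text descriptions of the samples name the vector by replicate number and disagree with the titles used here. Read literally, they would put both vectors in every list.

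The promoter is shown first because all 4 lists placed a summit almost on the annotated start of Gata3. The bases below run 5′ to 3′ from 250 before the start to the first 30 of the transcript, on the reverse strand of GRCm38.p6, the assembly that mm10 names, and come from RefSeq. The Gata3 stretch is chr2:9878571-9878850, and that of Taf3, the next protein-coding gene, is chr2:10048580-10048859. Capitals mark every match to CANNTG, the general E-box, on either strand. No AGATAA, the GATA site searched for, was found in either stretch.
Gata3: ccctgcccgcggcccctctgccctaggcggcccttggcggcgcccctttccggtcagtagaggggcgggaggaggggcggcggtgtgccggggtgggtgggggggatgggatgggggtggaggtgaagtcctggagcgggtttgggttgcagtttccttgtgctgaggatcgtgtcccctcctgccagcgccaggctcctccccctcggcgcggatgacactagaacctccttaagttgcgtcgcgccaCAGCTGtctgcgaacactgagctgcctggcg
Taf3: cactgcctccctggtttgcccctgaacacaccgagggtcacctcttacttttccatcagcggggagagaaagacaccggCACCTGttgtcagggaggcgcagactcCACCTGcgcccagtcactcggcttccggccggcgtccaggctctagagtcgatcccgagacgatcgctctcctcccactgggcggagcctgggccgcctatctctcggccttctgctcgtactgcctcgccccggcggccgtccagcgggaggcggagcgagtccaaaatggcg

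In the Gata3 stretch the only E-box is CAGCTG, whose first base lies 1 base before the annotated start. The highest summit of the promoter region lay 7 bases before the start in E47 and 10 in GFP at 4 h, and 2 bases before it in E47 and 7 in GFP at 16 h. The summits therefore fell within a few bases of this E-box with either vector. Over 32851 RefSeq promoter stretches of the same length, 14.9% hold CAGCTG and 70.1% hold CANNTG, which includes it. Taf3 has 2 matches to CACCTG, the other E-box searched for, which 19.1% of all stretches hold. The sites searched for AP-1 (TGANTCA), Runx (TGTGGT) and ETS factors (ACAGGAAG) had no match in either gene's stretch, and 7.46%, 15.6% and 3.39% of all stretches hold them. AGATAA is in 10.7%. The Gata3 stretch was 69.3% G and C, and that of Taf3 66.1%. A match of letters does not show that a factor binds there.

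The promoter region itself (chromosome 2, 9878308 to 9878977) was called in all 4 lists with near-equal values. Its fold enrichment, the authors' ratio of signal over local background at the highest summit of a region, was 5.22 in E47 and 5.19 in GFP at 4 h, and 4.97 in E47 and 5.36 in GFP at 16 h. These are low ranks by fold, at percentiles 16.2 and 13.0 of the 4 h lists and 11.3 and 15.1 of the 16 h lists. By −log10 p the same region ranked at percentiles 67.0 and 62.6 at 4 h and 60.1 and 67.0 at 16 h, in the same order of vectors. A second region 1.1 kb upstream of the start (9879196 to 9879899), inside the RefSeq gene span that longer transcript models extend, was also in all lists. It had folds of 7.45 in E47 and 7.74 in GFP at 4 h, and 8.12 in E47 and 6.72 in GFP at 16 h. Its percentiles by −log10 p, between 77.1 and 80.4, were the highest of the gene body in each list.

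The gene sits in the most populous group of regions of its neighbourhood, when regions with short gaps between their summits are chained. The largest gap inside it was 11.7 kb, and the nearest regions outside it lay 42.3 kb further downstream and 14.6 kb further upstream. This cluster held 12 regions, from 30.2 kb downstream to 10.8 kb upstream of the start, and no other cluster held more than 6. Of the 12, 5 were in all 4 lists. At 4 h E47 called 10 of them (83.3%) and GFP 8 (66.7%), against 77.7% and 66.5% of all regions. At 16 h E47 called 7 (58.3%) and GFP 8 (66.7%), against 62.9% and 81.8% of all regions. The annotation used here gives no exons, so positions inside the gene are given by distance alone.

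**Figure D1:**
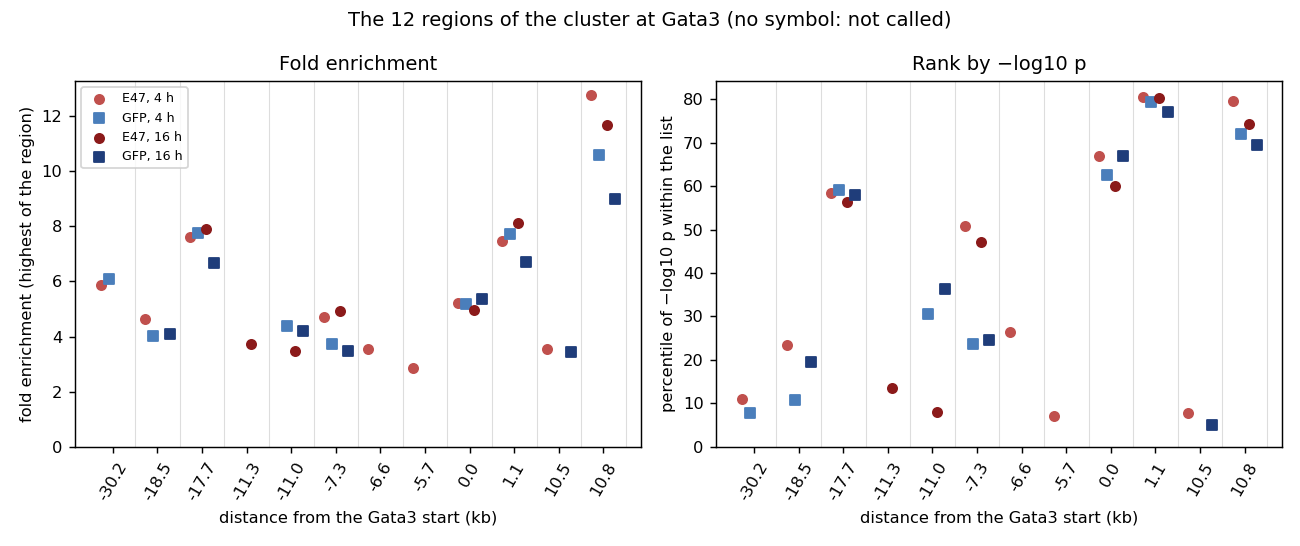
The 12 regions of the cluster at Gata3 by distance of the summit from the start (kb, negative is downstream), with fold enrichment on the left and the percentile of −log10 p within the list on the right; circles are E47 and squares GFP, and a missing symbol means not called. The promoter at 0.0 kb has folds between 4.97 and 5.36 in all lists. By the highest summit, the regions 7.3 kb downstream and 10.8 kb upstream have higher values in E47 than in GFP at both times.

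Near the gene, 2 regions had higher folds, by the highest summit, with E47 than with GFP at both times. The one 7.3 kb downstream of the start (9870896 to 9871557) had 4.73 in E47 and 3.74 in GFP at 4 h, and 4.92 in E47 and 3.48 in GFP at 16 h. Its percentile by −log10 p was 50.9 in E47 and 23.5 in GFP at 4 h, and 47.1 in E47 and 24.5 in GFP at 16 h. The other, 10.8 kb upstream of the start and 1448 bp beyond the gene (9889281 to 9889781), lies inside the noncoding gene 9230102O04Rik. It had 12.8 in E47 and 10.6 in GFP at 4 h, and 11.7 in E47 and 9.0 in GFP at 16 h, the highest folds of the cluster. The ratios of E47 over GFP at 4 h and 16 h were 1.26 and 1.42 for the first and 1.21 and 1.30 for the second, all under 1.5. With the mean over a region's summits in place of the highest, they were 1.33 and 1.02, and 1.31 and 1.27. Where a list had separate peaks in a region, the highest of their means was kept. By that mean the region 17.7 kb downstream (1.19 and 1.10) was also higher in E47 at both times. The one 1.1 kb upstream had 1.18 and 1.16. There E47 at 4 h had separate peaks and only the stronger one's mean counted, while GFP at 4 h had 1 peak, so its 4 h ratio depends on the splitting. Over the 36 window regions called in both 4 h lists the median ratio was 1.14, and 23 (63.9%, against 66.6% over the genome) were higher in E47. Over the 32 called in both 16 h lists the median was 0.89, and 11 (34.4%, against 35.7%) were higher in E47. The genome's medians were 1.07 at 4 h and 0.94 at 16 h. Of the 29 regions around Gata3 in all 4 lists, 8 had a higher fold in E47 at both times, which is 27.6% against 27.4% of all such regions, so this pattern was as common here as elsewhere.

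The region 17.7 kb downstream of the start (9860791 to 9861329) was in all lists, with folds between 6.67 and 7.89 and percentiles by −log10 p between 56.2 and 59.1. The 7 cluster regions that follow were each missing from at least 1 list. Its neighbour 18.5 kb downstream, 227 bp away, was missing only from E47 at 16 h and had folds between 4.02 and 4.65 elsewhere. The region 11 kb downstream was missing only from E47 at 4 h, with folds between 3.47 and 4.39. E47 at 16 h alone had a region whose edge lay 94 bp from that one, 11.3 kb downstream, with a fold of 3.72. E47 at 4 h alone had regions 6.6 kb and 5.7 kb downstream, with folds of 3.54 and 2.85. The region 30.2 kb downstream was called at 4 h alone, with 5.87 in E47 and 6.08 in GFP. The region 10.5 kb upstream, 43 bp from the strong one at 10.8 kb, had 3.55 in E47 at 4 h and 3.45 in GFP at 16 h and was in no other list.

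**Figure D2:**
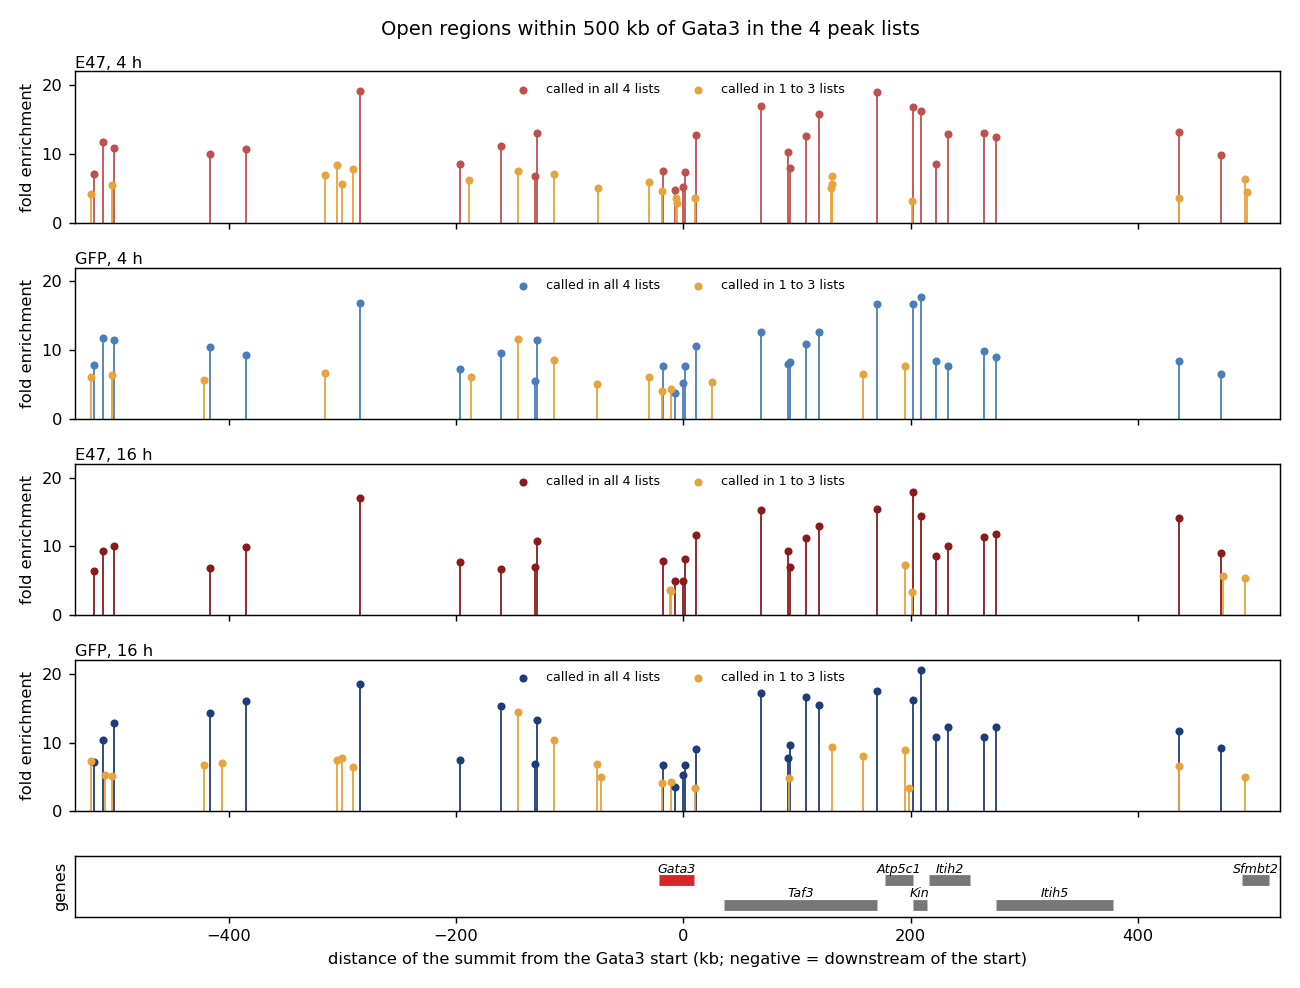
All regions within 500 kb of Gata3 by distance of the summit from its start (kb, negative is downstream), with their fold enrichment in the 4 lists from E47 at 4 h to GFP at 16 h; orange marks regions called in 1 to 3 lists, and bars at the foot are protein-coding genes. The tall line 284.4 kb downstream stands in every list, and beyond the gene body the downstream side has no orange line in E47 at 16 h.

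The strongest distant regions were ranked among those that all lists called. First by the mean percentile of fold over the 4 lists was the region 284.4 kb downstream of the start (9593768 to 9594494), in a stretch of the genome without protein-coding genes. It had folds of 19.2 in E47 and 16.9 in GFP at 4 h, and 17.1 in E47 and 18.6 in GFP at 16 h, with a mean percentile of 88.8. With the mean over its summits, the ratio of E47 over GFP was 1.76 at 4 h and 1.44 at 16 h, in place of 1.14 and 0.92. GFP had weak summits there that E47 lacked, with folds of 2.52 and 4.49 at 4 h and 1.84 and 4.41 at 16 h. These lower the mean in GFP. The coordinates of the T cell enhancers known for Gata3 are not in the files used here, and no region was matched to one. Next came the Taf3 promoter, 170.0 kb upstream (10047729 to 10048903), which overlaps the Taf3 stretch shown above. Taf3 encodes a subunit of the general transcription factor TFIID, and its region had 19.0 in E47 and 16.7 in GFP at 4 h, and 15.5 in E47 and 17.4 in GFP at 16 h. The region 208.8 kb upstream, inside Kin, followed with 16.3 in E47 and 17.7 in GFP at 4 h, and 14.5 in E47 and 20.5 in GFP at 16 h. The shared promoter of Atp5c1, which encodes a subunit of ATP synthase, and Kin lay 201.9 kb upstream, with folds between 16.2 and 17.9.

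Inside the body of Taf3 lay 3 of the next regions of this ranking. The one 68.3 kb upstream of the Gata3 start (9946475 to 9947161) had 17.0 in E47 and 12.7 in GFP at 4 h, and 15.3 in E47 and 17.2 in GFP at 16 h. The one 119.1 kb upstream had 15.8 in E47 and 12.6 in GFP at 4 h, and 12.9 in E47 and 15.5 in GFP at 16 h. The one 107.8 kb upstream had 12.6 in E47 and 10.9 in GFP at 4 h, and 11.2 in E47 and 16.7 in GFP at 16 h. In each of these 3, E47 was thus higher at 4 h and lower at 16 h. This was also the commonest order among the 29 regions in all lists, with 13 of them (44.8%), and 42% of such regions over the genome had it. With the mean over a region's summits in place of the highest, only the region at 68.3 kb kept this order among the 3. At 4 h the ratio of E47 over GFP was then 0.56 at 107.8 kb and 0.87 at 119.1 kb. E47 at 4 h had weak summits there, with folds of 2.10 and 2.23, which lower its mean. By the mean over summits 8 of the 29 had the order, against 35% over the genome, and 9 were higher in E47 at both times, against 25.7%. These counts depend on the splitting of peaks. In regions 170.0 kb and 222.7 kb upstream, GFP at 4 h had separate peaks and only the highest of their means was kept. The ranking was completed by regions 128.3 kb downstream (folds between 10.8 and 13.2), 436.2 kb upstream near Sfmbt2 (between 8.41 and 14.2) and 500.5 kb downstream (between 10.02 and 12.9).

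The downstream side of Gata3, a gene desert in this window, differed most between the 16 h lists. Of its 27 regions, E47 at 16 h called 10 and GFP at 16 h called 22, and of the 22 in either list none was E47-only (8.38% of all regions) and 12 were GFP-only (29.6% of all regions). At 4 h, E47 called 21 and GFP 19 of the same 27, or 77.8% and 70.4%, near the 77.7% and 66.5% of all regions. As shares, E47 at 16 h had 37% (95% exact binomial interval 19.4 to 57.6) and GFP at 16 h had 81.5% (61.9 to 93.7), whereas over all 60835 regions these lists called 62.9% and 81.8%. On the upstream side, which holds Taf3 and 5 more protein-coding genes, E47 at 16 h called 19 and GFP at 16 h 23 of 29 regions. In the gene body the 16 h lists called 6 each of 9. The sides were set apart after the values had been seen, so the share on the downstream side is a description. When all lists were shortened to 40649 regions by −log10 p, E47 and GFP called 14 and 18 downstream regions at 4 h, and 10 and 15 at 16 h. At 16 h, 1 was then E47-only and 6 were GFP-only. Of all regions in either 16 h list at equal length, 15.9% were E47-only and 16.6% GFP-only.

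**Figure D3:**
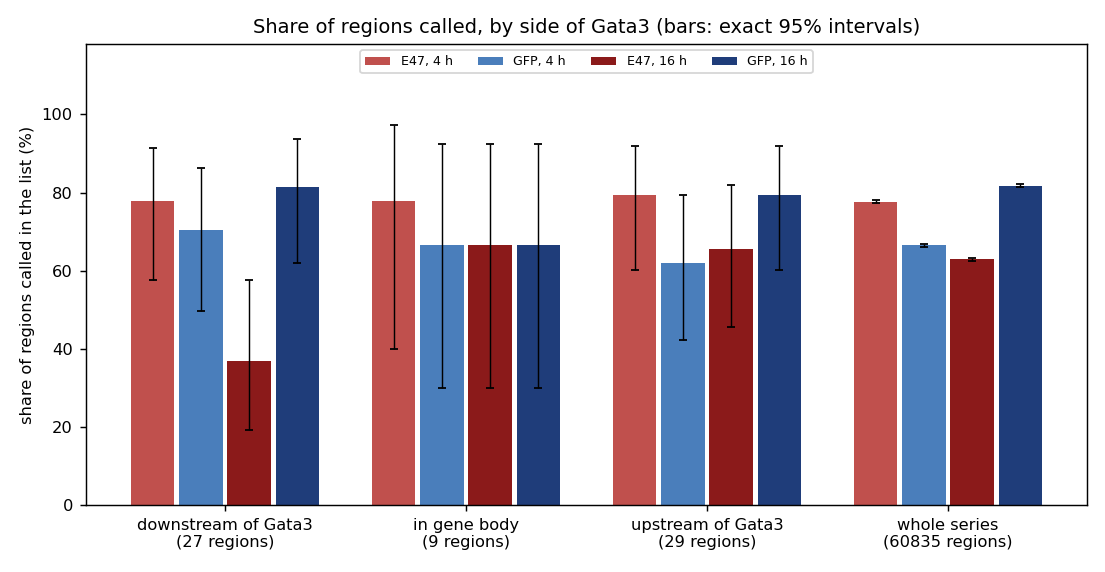
Share of regions (%) called in each list, downstream of Gata3, in its body, upstream of it and over the whole series; bars are shares, with exact 95% binomial intervals that cover counting error only. E47 at 16 h called 37% of the 27 downstream regions, against 62.9% over the whole series.

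Which regions E47 at 16 h lacked on the downstream side can be named. Missing from that list only were 4 of them, and the 2 strongest were 145.1 kb and 114.0 kb downstream of the start. The first (9733245 to 9733673) had 7.61 in E47 and 11.6 in GFP at 4 h, and 14.5 in GFP at 16 h. The second (9764446 to 9764698) had 7.12 in E47 and 8.62 in GFP at 4 h, and 10.4 in GFP at 16 h. The other 2 were weaker, 502.6 kb and 521.4 kb downstream, with folds between 4.17 and 7.27. With the region 18.5 kb downstream in the gene, 5 of the 65 regions (7.69%) were missing only from E47 at 16 h, against 6.67% of all regions. Beside the strong region 284.4 kb downstream, 3 regions between 290.9 kb and 304.2 kb downstream were called by 2 lists, E47 at 4 h and GFP at 16 h. Their folds were 7.77, 5.67 and 8.47 in E47 at 4 h and 6.47, 7.77 and 7.47 in GFP at 16 h, in order of distance from the gene. In all, 6 regions (9.23%) had this pattern, which joins the longest lists, against 4.57% of all regions. The opposite pattern, E47 at 16 h with GFP at 4 h, had 0 of the 65 (0.334% of all regions).

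Among downstream regions that all lists called, 3 had a fold at least 1.5 times lower in E47 than in GFP at 16 h. They were named because of these values. The region 160.5 kb downstream (9717816 to 9718275) had 11.2 in E47 and 9.56 in GFP at 4 h, but 6.66 in E47 and 15.3 in GFP at 16 h. The region 416.4 kb downstream (9461918 to 9462640), inside the noncoding gene Gm13219, had 10.03 in E47 and 10.5 in GFP at 4 h, and 6.84 in E47 and 14.3 in GFP at 16 h. The region 384.6 kb downstream (9493633 to 9494241) had 10.7 in E47 and 9.37 in GFP at 4 h, and 9.90 in E47 and 16.0 in GFP at 16 h. The 16 h ratios of E47 over GFP were 0.43, 0.48 and 0.62 in that order. These 3 of 32 regions (9.38%) stand against 8.45% of all regions called in both 16 h lists, and none was 1.5 times higher in E47, against 1.28%. When the mean over a region's summits was used in place of its highest, the ratios were 0.67, 0.76 and 0.85, none of them 1.5 times lower. In each of the 3, GFP at 16 h had more summits than E47, some of them weak, which lowers its mean. By the mean over summits 1 other region, 500.5 kb downstream, was 1.5 times lower in E47 (9.6% of all regions) and none 1.5 times higher (3.27%).

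At 4 h, 3 upstream regions had a fold at least 1.5 times higher in E47 than in GFP. The region 232.6 kb upstream, in Itih2, had 12.9 in E47 and 7.68 in GFP at 4 h, and 10.1 in E47 and 12.2 in GFP at 16 h. Itih2 encodes a heavy chain of the inter-alpha-trypsin inhibitors, which bind hyaluronan. The region 436.2 kb upstream (10314678 to 10315606) had 13.1 in E47 and 8.41 in GFP at 4 h, and 14.2 in E47 and 11.7 in GFP at 16 h, and thus stayed higher in E47. The region 472.7 kb upstream had 9.87 in E47 and 6.56 in GFP at 4 h, and 9.0 in E47 and 9.27 in GFP at 16 h. Of 36 regions called in both 4 h lists, these 3 make 8.33%, against 4.41% over the genome, and 1 (2.78%), 145.1 kb downstream, was 1.5 times lower in E47, against 1.36%. With the mean over summits the ratio at 232.6 kb upstream was 1.40, below 1.5, while regions 284.4 kb and 416.4 kb downstream reached 1.76 and 1.51. In these 2, GFP at 4 h had weak summits that E47 lacked, with folds such as 2.52 and 2.71, which lower its mean. By the highest summit their ratios were 1.14 and 0.95. By the mean over summits, with the highest mean kept where a list had separate peaks, 4 regions were 1.5 times higher in E47 and 3 lower. Of all regions, 6.08% and 4.36% were. The lower ones include the Taf3 promoter (0.63), where GFP at 4 h had separate peaks and only the strongest one's mean counted, so that ratio depends on the splitting. Just outside 1.5 at 4 h were the Itih5 promoter, 274.9 kb upstream, with a ratio of 1.38, and the region 521.4 kb downstream, with 0.67. At 16 h the nearest outside was the region 107.8 kb upstream, also with 0.67.

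**Figure D4:**
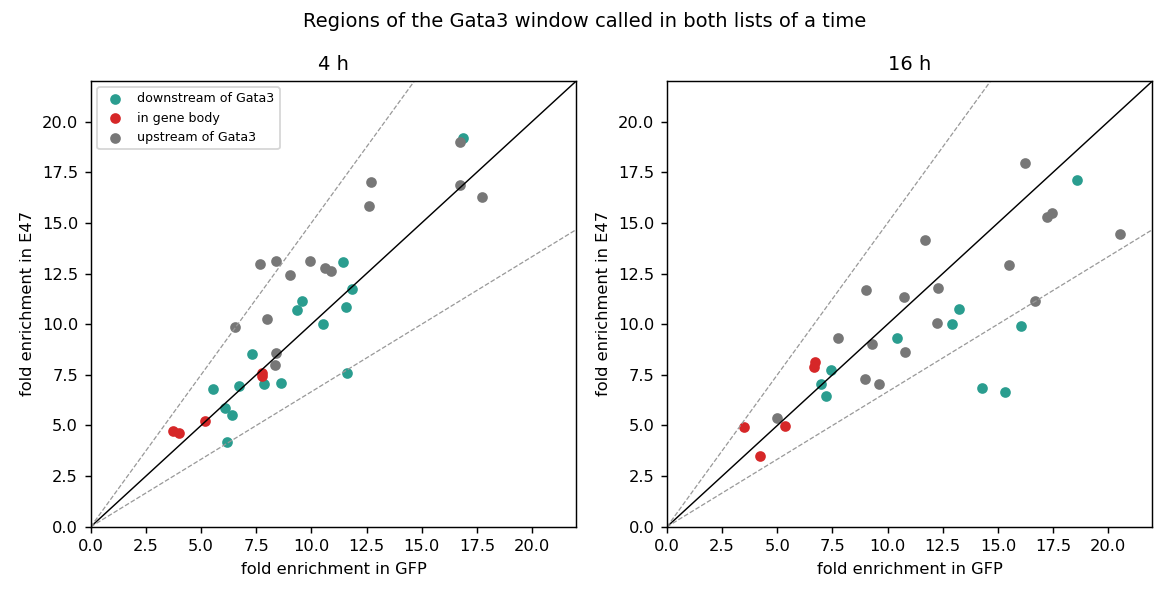
Fold enrichment in E47 (vertical axis) against GFP (horizontal axis) for regions of the Gata3 window called in both lists of a time, 36 at 4 h and 32 at 16 h, coloured by side; the solid line marks equal values and the dashed lines a ratio of 1.5 either way. At 16 h 3 downstream regions lie below the lower dashed line.

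Calls that set the vectors apart at both times were few. Only 1 of 65 regions (1.54%; 0.0389 to 8.28) was E47-only at both times, against 3.43% of all regions, and 3 (4.62%; 0.962 to 12.9) were GFP-only at both times, against 4.56%. The E47-only region (10079818 to 10079931) was a fragment of 114 bp with a fold of 3.22 at 4 h and 3.38 at 16 h, and it lay 48 bp from the promoter of Atp5c1 and Kin that every list called. The GFP-only region nearest to Gata3, 75.5 kb downstream of the start (9802999 to 9803217), had a fold of 5.10 at 4 h and of 6.86 at 16 h. E47 at 4 h alone called another region 397 bp away. A second, 421.6 kb downstream (9456873 to 9457133), had 5.62 and 6.68. The third lay 158.4 kb upstream in Taf3 (10036637 to 10037536), with 6.49 and 8.08, and was the widest of the 3. None of the 4 ranked above percentile 42.4 of its list by fold.

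At 4 h taken alone, 15 of 58 regions were E47-only (25.9%; 15.3 to 39.0), against 22.7% of all regions, and 7 were GFP-only (12.1%; 4.99 to 23.3), against 9.73%. At 16 h, 3 of 54 were E47-only (5.56%; 1.16 to 15.4), against 8.38%, and 19 were GFP-only (35.2%; 22.7 to 49.4), against 29.6%. These shares lie near those of the genome at either time. List length moved them: with all lists of equal length, E47 alone had 5 and GFP alone 9 at 4 h, which turns the balance, and E47 alone had 5 and GFP alone 8 at 16 h. Over the genome, equal length gave 13.7% E47-only and 13.5% GFP-only regions at 4 h, and 15.9% E47-only and 16.6% GFP-only at 16 h.

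The remaining regions in all 4 lists had folds within 1.5 times of each other between vectors at each time. The Itih5 promoter had 12.4 in E47 and 9.01 in GFP at 4 h, and 11.8 in E47 and 12.3 in GFP at 16 h. Itih5 is of the same family as Itih2. Between these genes, 264.3 kb upstream of the Gata3 start, a region had 13.1 in E47 and 9.93 in GFP at 4 h, and 11.3 in E47 and 10.8 in GFP at 16 h. Another in Itih2, 222.7 kb upstream, was level at 4 h, with 8.58 in E47 and 8.41 in GFP, and had 8.61 in E47 and 10.8 in GFP at 16 h. In Taf3 a pair of regions lay 91.8 kb and 93.6 kb upstream, and they differed between vectors in opposite directions. The nearer one had 10.3 in E47 and 7.99 in GFP at 4 h, and 9.33 in E47 and 7.74 in GFP at 16 h. The farther one had 7.996 in E47 and 8.34 in GFP at 4 h, and 7.05 in E47 and 9.60 in GFP at 16 h. Only GFP at 16 h had a weak region between them, with a fold of 4.92.

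Downstream, the regions in all lists that have not been named so far had ratios of E47 over GFP between 0.89 and 1.23 at both times. The region 196.8 kb downstream had 8.53 in E47 and 7.31 in GFP at 4 h, and 7.74 in E47 and 7.42 in GFP at 16 h. The region 130.1 kb downstream, beside the stronger one at 128.3 kb, had 6.81 in E47 and 5.55 in GFP at 4 h, and 7.06 in E47 and 6.96 in GFP at 16 h. At the far edge, in Gm13219, 6 regions stood between 500.5 kb and 521.4 kb downstream, and 3 of them were in all lists. Of these 3, the one at 510.5 kb had 11.7 in E47 and 11.8 in GFP at 4 h, and 9.32 in E47 and 10.4 in GFP at 16 h, and the one at 518.4 kb had folds between 6.43 and 7.85. In Atp5c1, a region 195.4 kb upstream of the Gata3 start was missing only from E47 at 4 h. Its folds were 7.65 in GFP at 4 h, and 7.28 in E47 and 8.96 in GFP at 16 h.

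Calls in 1 list alone were 16 of 65 (24.6%), against 22.3% of all regions. Their median percentile by fold was 14.2, against 62.2 for the 29 regions in all 4 lists, and their median width was 178.5 bp against 687 bp. Over the whole series the same medians were 18.9 against 65.5, and 218 bp against 678 bp, so the contrast was general. The highest in percentile in each list were a region 130.8 kb upstream in E47 at 4 h (fold 6.75), one 186.9 kb downstream in GFP at 4 h (6.15), one 474.5 kb upstream in E47 at 16 h (5.76) and one 405.6 kb downstream in GFP at 16 h (7.05). At a second annotated start of Sfmbt2, the gene of a Polycomb group protein, a region 493.9 kb upstream was missing from GFP at 4 h only. It had 6.34 in E47 at 4 h, and 5.36 in E47 and 4.98 in GFP at 16 h.

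Between the times, 4 of 55 regions of E47 cells were in the 16 h list alone and 20 in the 4 h list alone (7.27% and 36.4%, against 5.97% and 23.9% of all regions). Of 55 regions of GFP cells, 12 were in the 16 h list alone and 4 in the 4 h list alone (21.8% and 7.27%, against 23.6% and 6.08%). The 20 regions that E47 called at 4 h and not at 16 h were 11 of 21 downstream of Gata3, 6 of 25 upstream and 3 of 9 in the gene body. This split by side was made after the values had been seen. At equal list length, the counts in the 16 h list alone and the 4 h list alone were 5 and 7 in E47 cells. In GFP cells they were 3 and 6, so the direction turned there. Shares of all regions at equal length were not computed between the times, so the turn is not read as particular to this window. In regions called at both times, the median ratio of fold at 16 h over 4 h was 0.91 in E47 and 1.16 in GFP, beside 0.94 and 1.10 over the genome. The fold was higher at 16 h in 8 of 31 regions in E47 (25.8%, against 31.1%) and in 29 of 39 in GFP (74.4%, against 73.5%). By 1.5 times or more, none was higher in E47 (0.156% of all) and 1 was lower (3.23%, against 2.6%), while in GFP 4 were higher (10.3%, against 4.78%) and none lower (0.132% of all). With the mean over summits none was 1.5 times higher in GFP, against 7.82% of all regions. In the cluster at the gene the medians were 1.04 over 5 regions in E47 and 0.93 over 7 in GFP.

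How dense this neighbourhood is was set against windows of the same reach around all 21900 protein-coding genes, which overlap one another. Gata3 had 65 regions, or 63.1 per Mb of window, against a median gene of 41 regions and 39.0 per Mb, and 80.9% of genes had fewer. Of the 65, 29 (44.6%) were in all lists, against 48.8% of all regions. For a list of 28 transcription factor genes, the shares of regions in the 15 possible call classes were compared with those of Gata3 over the 4 lists. The difference, from 0 for equal shares to 1, was least for Irf4 (0.15, 47 regions), Bcl11b (0.15, 52 regions) and Batf (0.17, 76 regions), and ran up to 0.37 for Rora. The whole series differed from Gata3 by 0.15 on the same measure, so no gene of the list was markedly nearer to it than the genome at large.

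Genes that Gata3 is known to bind or control in ILC2s or Th2 cells were open with both vectors. All 24 genes of a list, from Il1rl1, Il5 and Il13 to Gfi1, had a region in all 4 lists within 10 kb, against 65.2% of all genes, and 72.9% of all genes had a region in any list. By region, 92 of the 173 regions near these genes (53.2%) were in all lists, near the 48.8% of all regions. The list includes effector genes that these cells are known for. By gene, 7 of 24 (29.2%) had a GFP-only region at both times (Il1rl1, Il4ra, Areg, Arg1, Ccr4, Rora and Tcf7), against 9.2% of all genes, and 1 (4.17%), Rora, had E47-only regions, against 7.57%. These genes had a median of 6 regions each, against 2 for all genes. By region, 7 of 173 (4.05%) were GFP-only at both times and 3 (1.73%) E47-only, against 4.56% and 3.43% of all regions, so the share of GFP-only regions lay near the background. Gata3 itself had 12 regions within 10 kb and none that was called with 1 vector only at both times.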

How the data were processed

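ATAC-seq peak lists of thymic ILC2s were analysed, 1 per group of 2 samples. The submitters' processing notes name mm10 as the build and DiffBind, MACS2, Bowtie2 and cutadapt as tools. The notes' settings and versions were not given in the sources used here. Reads, per the labels, were trimmed and pooled after duplicate removal and Tn5 adjustment, and the lists are conservative sets by irreproducible discovery rate. The deposited values per summit are a score between 540 and 1000, which was not used, a fold enrichment, which is a ratio over local background, and −log10 p, never below 2. Fold and −log10 p are the authors' values, belong to their own list and were set side by side without a test. No read depth stands in the files used here.

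Peaks of a list that overlapped were merged, and a region's fold is its highest. The mean over summits was taken within each merged peak. Where a list had several such peaks in a region, the highest of their means was kept. This mean also falls where a list has more weak summits in a region. Percentiles are over the regions of a list. Gene spans and promoter sequences came from RefSeq tables of GRCm38.p6, without exons. The distance is from the start that the promoter table gives, at 9878600. Named regions were those within 10 kb of the gene or in its cluster, the 10 strongest in all lists, those called with 1 vector only, at 4 h and 16 h alike, the strongest of each single list, and those with a fold ratio of 1.5 in the same direction at both times, of which there were none; others were named for their values. A result for 1 gene is not reported here. The members and lists were chosen with earlier results of these data known. Intervals are exact (Clopper-Pearson, 95%) and cover counting error only. The code recovered the call class of every simulated region. These regions lay apart from each other and were never split within a list, and the mean over summits was not checked this way. Alternatives were other overlaps, gaps, summit distances, windows, list lengths and thresholds. The tools were matplotlib 3.10.9, scipy 1.17.1, numpy 2.4.6, pandas 2.3.3 and Python 3.11.15.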

Additional observations from a re-analysis of the deposited data

Results flagged for a closer look

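The balance of regions called with 1 vector lay one way at 4 h and the other at 16 h around Gata3. The number of E47-only regions less the number of GFP-only ones was 8 after 4 h and -16 after 16 h. No test of this difference was possible with 1 list per group, so it was not tested, and the list of E47 is the longer at 4 h and the shorter at 16 h. Of all regions of the genome, 22.7% belonged to E47 alone and 9.73% to GFP alone at 4 h, and 8.38% to E47 alone and 29.6% to GFP alone at 16 h, so the same change of balance was seen over the genome. At equal list length the Gata3 window had 5 E47-only and 9 GFP-only regions at 4 h and 5 and 8 at 16 h, and the change of balance was lost.

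In 4 regions called in every list, the fold at 16 h was below that at 4 h in E47 and at least 1.5 times that at 4 h in GFP. The ratio of 16 h over 4 h was 0.60 in E47 and 1.61 in GFP for the region 160.5 kb downstream of the Gata3 start, and 0.93 and 1.71 for the one 384.6 kb downstream. It was 0.88 in E47 and 1.54 in GFP for the region 107.8 kb upstream in Taf3, and 0.78 and 1.59 for the one 232.6 kb upstream in Itih2. These differences between the vectors were not tested. With the mean over a region's summits none of the 4 reached 1.5 in GFP. The ratio was then 0.94 in E47 and 1.45 in GFP at 160.5 kb downstream, and 0.77 in E47 and 1.38 in GFP at 232.6 kb upstream. It fell below 1 in GFP at 384.6 kb downstream, with 0.93 in E47 and 0.77 in GFP, and at 107.8 kb upstream, with 1.18 in E47 and 0.79 in GFP. In these 2 regions GFP had 1 summit at 4 h and 3 at 16 h. The added ones were weaker, which lowers the mean at 16 h, while the highest summit rose 1.71 and 1.54 times.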

How the results depend on the processing

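No paired analysis was possible because each group has 1 joint list, and for the same reason no replicate could be left out. E47 and GFP called 51 and 43 regions around Gata3 after 4 h and 35 and 51 after 16 h, 29 of them in all lists, and the list counts below keep this order. An overlap of 50% of the shorter region changed none of the 11 planned counts. With regions up to 200 bp apart treated as shared, 1 region was E47-only at 16 h in place of 3, and 0 in place of 1 at both times. At equal list length, E47-only regions were 5 at 4 h and 5 at 16 h, and GFP-only ones 9 and 8. Limited to regions above the median fold of their list, the lists called 20, 17, 18 and 23, with 13 in all. In this setting a region counted as E47-only where its fold passed the median in E47 and not in GFP, even if both lists had called it. Such counts were 4, 2 and 1 at 4 h, 16 h and both times, and the GFP-only counts, formed likewise, 1, 7 and 1. Among regions truly called by E47 and not GFP at 4 h, the highest percentile by fold was 48.3, below the median. With single summits within 150 bp as the unit, the lists held 121, 110, 98 and 140, with 71 in all, 34, 8 and 2 E47-only and 20, 48 and 10 GFP-only. Windows of 100 kb held 16, 15, 11 and 16 regions, 9 in all lists, 4, 1 and 0 E47-only and 3, 6 and 1 GFP-only. Windows of 250 kb held 32, 29, 23 and 31, with 19 in all, 9, 2 and 1 E47-only and 6, 10 and 2 GFP-only. The time comparisons and the counts by side were chosen after seeing the data. Windows of 1000 kb left each of the 11 counts within 1.5 times its value. The balance at 4 h turned to GFP at equal list length and kept to E47 in the other settings, and at 16 h it kept to GFP in each. The setting above the median fold compares which regions passed the median, not which were called. Median folds and percentiles moved by less than 1.5 times with the mean over summits or ranks by −log10 p. The ratio of E47 over GFP moved by more than 1.5 times with the mean over summits in 10 of 68 cases. By that mean, tried for the time ratios after seeing the data, the ratio of 16 h over 4 h in GFP reversed to 0.79 at 107.8 kb upstream and 0.77 at 384.6 kb downstream. In both regions GFP had more weak summits at 16 h than at 4 h, which lowers the mean. Depth per library is unknown here, so calls near the threshold cannot be weighed by it.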
